A study of Mus musculus with 6 samples.

Results

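The immediate early genes described here are Fos, Fosb, Jun, Junb, Egr1, Egr2, Egr3, Ier2, Nr4a1 and Atf3, and their levels were read in right atria (RAs) of young mice with and without volume overload (VO). The 10 genes were chosen by symbol from the 54093 complete genes of the expression table, in which each symbol stood on 1 row, and the choice was made with their VO and sham values known. For that reason the difference between the groups is given for them as a description, with no test. RNA was sequenced from 3 sham-operated RAs (sham 1 to sham 3) and 3 VO RAs (VO 1 to VO 3). All mice were wild type (WT) C57BL/6, male or female, operated on at P7 and sampled at P21, and VO was made by a puncture from the abdominal aorta into the inferior vena cava, an aortocaval fistula. The tissue was the myocardium of the atrial free wall, so each library mixes cardiomyocytes with the other cells of the wall. The study asked whether VO alters the postnatal maturation of the RA. Nothing in the labels says whether each library came from a separate animal, so p-values measure only the spread between these samples.

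Immediate early genes are switched on within minutes of a stimulus, from transcription factors that the cell already holds, and their messenger RNAs decay quickly. Most of them encode transcription factors themselves. FOS, JUN and ATF proteins pair through leucine zippers to form the AP-1 complex, EGR proteins bind GC-rich sites through zinc fingers, and NR4A proteins are orphan nuclear receptors. In heart muscle this group is known to respond to stretch, to adrenergic signals and to growth factors.

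The libraries held 15963082 to 17237903 fragments on genes, and values are in FPKM, fragments divided by gene length in kilobases and by a library size that is not the library's own fragment total, since a scaling between libraries was already in the deposited values. With it, 1 FPKM over 1 kilobase equals 15.6 to 18.1 fragments. The atrial cardiomyocyte markers Myl7, Myl4, Sln, Nppa, Myh6, Tnnt2 and Actn2 were read in every library, with a summed level of 13953 to 20048 FPKM in sham and 6595 to 13337 FPKM in VO, and 7 of 7 had a lower mean in VO. The summed macrophage markers were 140 to 203 FPKM in sham and 157 to 402 FPKM in VO, and the highest value was that of VO 1. In VO 3 the adipocyte markers summed to 435 FPKM, against 3.50 to 7.93 FPKM in the other libraries. In bulk RNA, fewer cells of a type and less RNA per cell cannot be told apart. Of the 12627 genes that reached a mean of 1 FPKM and were tested, limma gave 1511 an unadjusted p-value under 0.05, 12% of those tested, with 491 higher and 1020 lower in VO. Scaled by fragment totals instead, the split was 942 higher and 631 lower, and on the TPM scale (FPKM rescaled to the same sum in every library) it was 1085 and 486. After Benjamini-Hochberg adjustment 1 gene, 0.00792%, was left.

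Averaged over the 6 libraries, Jun had the highest level of the group at 16.5 FPKM, followed by Ier2 at 14.2, Nr4a1 at 8.13, Egr1 at 6.89, Junb at 6.01, Atf3 at 4.67 and Fos at 2.53 FPKM. Egr2, Egr3 and Fosb were far lower, at 0.518, 0.411 and 0.297 FPKM. The ranges of neighbours in this order overlapped over the libraries, except that the lowest Fos value, 1.73 FPKM, lay above the highest Egr2 value, 0.849 FPKM. A mean of at least 1 FPKM was reached by 7 of the 10 genes, and Egr2, Egr3 and Fosb fell short of it.

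**Figure D1:**
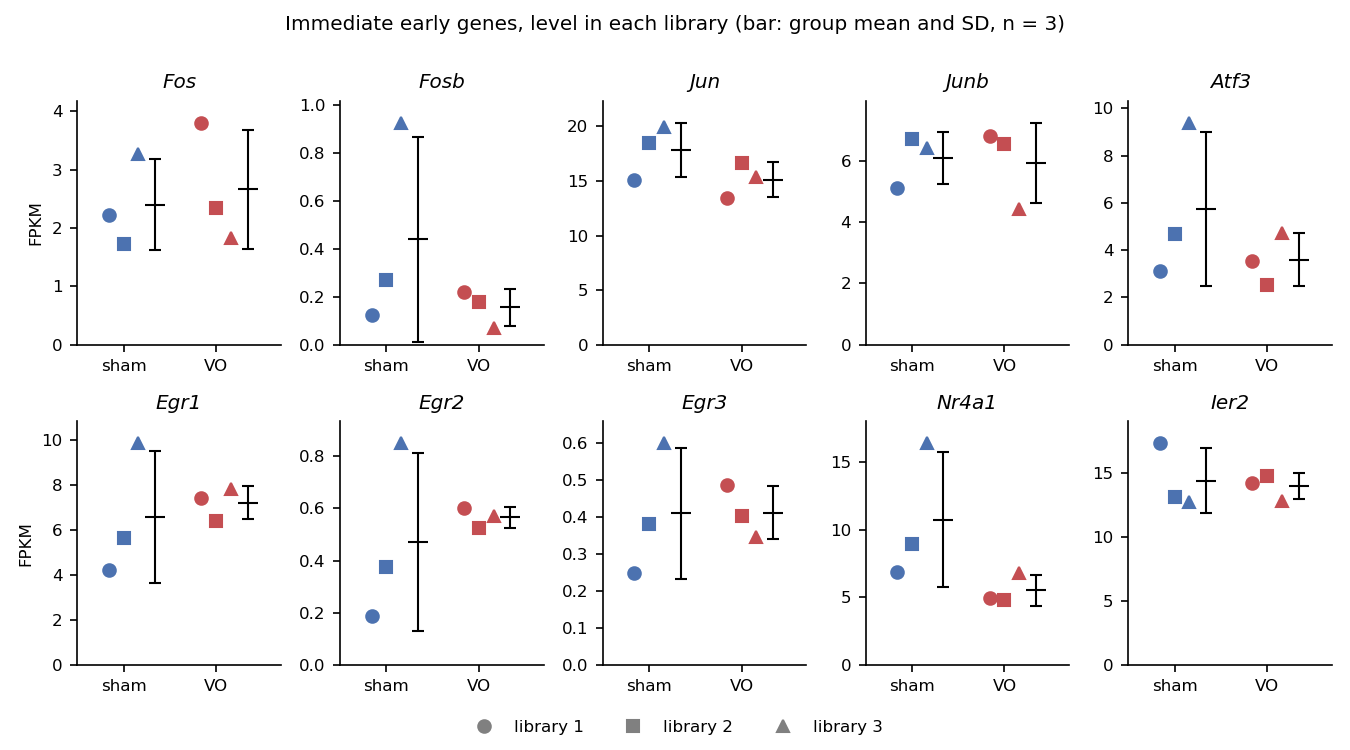
Level of each immediate early gene in FPKM (vertical axes, each from 0) in the 3 sham (blue) and 3 VO (red) libraries, with the group mean and SD in black. Nr4a1 is the gene whose groups do not overlap, and sham 3 (blue triangle) is the highest library for 7 of the 10 genes.

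The stretches just before the transcription start are given for Nr4a1, Egr2, Fosb and Fos, picked after their values were seen. Matches to the letters of known sites are marked in them, and whether these matches act in the atrium was not tested. The sequences are from RefSeq (GRCm38.p6), 5′ to 3′ on the strand of the gene. Capitals mark the core site of a cyclic AMP response element (TGACG, on either strand), the serum response factor site known as the CArG box, an EGR site (GCGNGGGCG, either strand) and the TATA box (TATAAA). The Nr4a1 stretch is chr15:101266696-101266845 (+) and ends at the base before the start, within the span of the gene, since longer transcripts begin upstream. It holds core sites at -69 to -65 and at -40 to -36, with an EGR site between them.
Nr4a1: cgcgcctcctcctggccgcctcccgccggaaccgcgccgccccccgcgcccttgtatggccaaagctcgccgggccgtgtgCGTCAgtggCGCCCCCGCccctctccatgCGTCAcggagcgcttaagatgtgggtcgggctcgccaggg
The Egr2 stretch is chr10:67537719-67537868 (+), before one of the RefSeq starts of the gene, and carries a CArG box between core sites.
Egr2: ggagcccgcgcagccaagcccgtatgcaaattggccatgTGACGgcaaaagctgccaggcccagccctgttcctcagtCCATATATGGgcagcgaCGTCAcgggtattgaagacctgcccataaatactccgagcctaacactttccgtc
The Fosb stretch is chr7:19310056-19310195 (-) and ends at -11, since an exon in GENCODE reaches a few bases upstream of the RefSeq start.
Fosb: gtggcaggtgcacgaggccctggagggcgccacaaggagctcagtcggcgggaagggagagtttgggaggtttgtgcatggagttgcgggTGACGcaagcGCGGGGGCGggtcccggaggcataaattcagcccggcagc
The Fos stretch is chr12:85473740-85473889 (+), with its TATA box at -33 to -28.
Fos: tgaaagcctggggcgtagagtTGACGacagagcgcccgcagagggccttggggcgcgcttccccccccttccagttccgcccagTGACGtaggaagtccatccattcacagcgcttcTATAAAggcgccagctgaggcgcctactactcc

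RefSeq windows of 300 bases, from 250 before to 50 after a start, were at hand for 7 of the 10 genes, Atf3, Egr2, Fos, Fosb, Jun, Junb and Nr4a1. The core site stood in 6 of these 7, all but Jun, and in 23.0% of the 27025 genes with a window. The full element TGACGTCA, which contains the core site on both strands, stood in 0 of 7 and in 2.03% of all genes. A CArG box was found in Egr2 and in 1.81% of all genes, and the EGR site in Fosb and Nr4a1 and in 6.27%. The AP-1 site TGANTCA was in 0 of 7 and in 8.97% of all genes, and TATAAA was in Fos and Junb and in 15.7%. In Junb TATAAA stood at bases 1 to 6 from the start, not upstream of it as in Fos. These matches describe the letters in the windows and say nothing of binding.

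Among the AP-1 genes, Fos encodes c-Fos, the partner of JUN proteins in the classical AP-1 dimer. It was read at 2.21, 1.73 and 3.26 FPKM in sham 1, sham 2 and sham 3 and at 3.8, 2.35 and 1.84 FPKM in VO 1, VO 2 and VO 3. The highest library was VO 1 and the lowest sham 2, and the groups overlapped. The means were 2.40 ± 0.786 FPKM in sham and 2.66 ± 1.02 FPKM in VO (SD, n = 3), a VO minus sham difference of 0.13 on the log2(FPKM + 0.1) scale with a standard error of 0.39. These values rest on 70 to 162 fragments.

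Fosb encodes FosB and the truncated and long-lived ΔFosB. Its levels were 0.124, 0.269 and 0.925 FPKM in sham 1 to sham 3 and 0.221, 0.177 and 0.0682 FPKM in VO 1 to VO 3. Sham 3 stood far above all other libraries, while sham 1 lay below VO 1 and VO 2. Sham 3 held 94 Fosb fragments (exact Poisson 95% interval 76 to 115, which covers counting error only), sham 1 held 12 (6.20 to 21) and VO 3 held 7 (2.81 to 14.4). The log2 difference was -0.83 ± 0.70 (SE), and without sham 3 it was -0.22.

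Jun, the most abundant gene of the group, encodes c-Jun, which binds DNA as a dimer with FOS, ATF or other JUN proteins. It was read at 15.1, 18.5 and 19.9 FPKM in sham and at 13.4, 16.6 and 15.3 FPKM in VO. Sham 3 was the highest library and VO 1 the lowest, with VO 2 and VO 3 above sham 1. The means were 17.8 ± 2.45 and 15.1 ± 1.61 FPKM, a log2 difference of -0.23 ± 0.15 (SE).

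Junb, whose product also joins AP-1 and can restrain c-Jun, was read at 5.11, 6.73 and 6.43 FPKM in sham and at 6.80, 6.56 and 4.44 FPKM in VO. VO 1 was the highest library and VO 3 the lowest, so the sham values lay inside the VO range. The log2 difference was -0.05 ± 0.23 (SE), and it was above 0 when FPKM was converted to TPM, at 0.09.

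Atf3 encodes a stress-induced bZIP factor that acts mostly as a repressor when it binds as a homodimer. Its levels were 3.13, 4.69 and 9.38 FPKM in sham and 3.56, 2.51 and 4.74 FPKM in VO. Sham 3 was far above the next library, VO 3, and without it the sham and VO values were interspersed. The log2 difference of -0.56 ± 0.52 (SE) became -0.14 without sham 3.

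Of the EGR genes, Egr1 encodes the zinc finger factor EGR1, an early target of serum response factor and of ERK signalling. It was read at 4.21, 5.65 and 9.85 FPKM in sham and at 7.41, 6.4 and 7.82 FPKM in VO. All VO libraries lay between sham 2 and sham 3. The means were 6.57 ± 2.93 FPKM in sham and 7.21 ± 0.732 FPKM in VO, and the log2 difference of 0.22 ± 0.36 (SE) was 0.55 without sham 3.

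Egr2, best known for its part in Schwann cell myelination and hindbrain patterning, was read at 0.189, 0.376 and 0.849 FPKM in sham and at 0.60, 0.523 and 0.573 FPKM in VO. As with Egr1, all VO libraries lay between sham 2 and sham 3. Counting error is large at this level, since sham 1 held 10 fragments (exact Poisson 95% interval 4.80 to 18.4), sham 3 held 47 (34.5 to 62.5) and the VO libraries 29 to 37. The log2 difference was 0.39 ± 0.50 (SE), and 0.84 without sham 3.

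Egr3, a close relative of Egr1, was read at 0.248, 0.382 and 0.599 FPKM in sham and at 0.488, 0.404 and 0.345 FPKM in VO, from 17 to 43 fragments per library. The sham range enclosed the VO range. The log2 difference was 0.06 ± 0.31 (SE).

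Nr4a1 encodes the orphan nuclear receptor NUR77. It was read at 6.91, 8.93 and 16.4 FPKM in sham and at 4.95, 4.79 and 6.83 FPKM in VO, from 274 to 937 fragments per library. Its groups did not overlap, but the gap was narrow, since VO 3 at 6.83 FPKM lay just under sham 1 at 6.91 FPKM. The means were 10.7 ± 5.0 FPKM in sham and 5.52 ± 1.13 FPKM in VO, a sham mean 1.95-fold that of VO. The log2 difference was -0.87 ± 0.40 (SE), and -0.52 without sham 3. On the TPM scale, and when libraries were scaled by their fragment totals, the difference was -0.74 and -0.78 and the groups overlapped.

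Ier2, which encodes a small nuclear protein induced by growth factors, was read at 17.4, 13.2 and 12.8 FPKM in sham and at 14.3, 14.8 and 12.9 FPKM in VO. Here sham 1 was the highest library and sham 3 the lowest, the reverse of most of the group. The log2 difference of -0.03 ± 0.15 (SE) was 0.10 on the TPM scale.

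Of the 10 genes, 6 had a lower and 4 a higher mean log2 level in VO, beside 51.5% of tested genes that were lower, and the median difference was -0.04, against -0.01 over all tested genes. The groups overlapped for 9 genes and did not for 1, Nr4a1, beside 21.2% of all tested genes without overlap and 12.9% without overlap and lower in VO. These counts are on the contrast by which the genes were chosen, and nothing is read from them. Over the 15 alternative settings tried for each gene, the difference stayed below 0 for Nr4a1 (-1.14 to -0.52), Fosb (-1.33 to -0.22), Atf3 (-0.91 to -0.14) and Jun (-0.35 to -0.09). It took the other sign in 6 settings for Ier2, in 4 each for Junb and Egr3, in 3 for Fos, in 2 for Egr1 and in 1 for Egr2. Among the settings, FPKM as deposited and the replicate number as a block gave the same differences as the main fit and could not turn a sign.

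The spread of these genes lay mainly among the sham libraries. Sham 3 was the highest of all 6 libraries for Fosb, Jun, Egr1, Egr2, Egr3, Nr4a1 and Atf3, and for Fos it was the highest of the sham libraries, so that it led the sham libraries for 8 of the 10 genes. The same held for 28.2% of all tested genes. Sham 1 was the lowest sham library for 8 of the 10 genes and for 35.0% of all tested genes. Fosb, Egr2 and Egr3 were not among the tested genes. Several of the 10 genes vary together and are not independent, so these counts describe single libraries only.

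Relative to sham 1, sham 3 held 7.48 times as much Fosb, 4.49 times as much Egr2, 2.99 times as much Atf3 and 2.34 to 2.42 times as much Egr1, Nr4a1 and Egr3. For Fos, Jun and Junb the ratio was 1.47, 1.32 and 1.26, and for Ier2 it was 0.737. Averaged over the 7 genes above the filter, each centred on its own mean, the log2 level was -0.19, -0.01 and 0.50 in sham 1 to sham 3 and -0.02, -0.18 and -0.11 in VO 1 to VO 3.

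**Figure D2:**
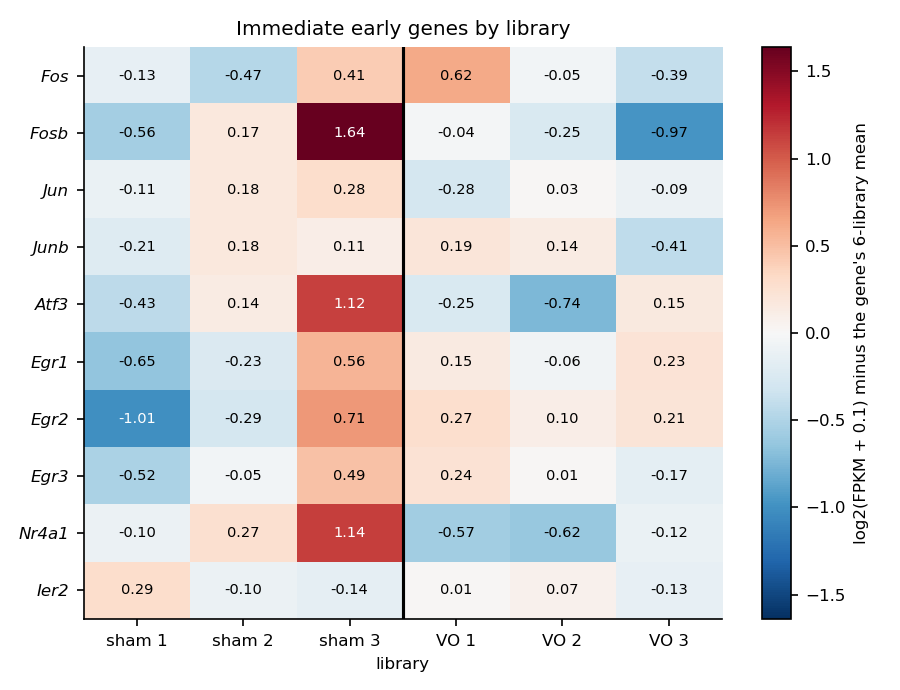
Each cell gives log2(FPKM + 0.1) minus the mean of that gene over the 6 libraries, with genes as rows and libraries as columns, and red above and blue below the mean. The column of sham 3 is red for 9 genes, with Fosb (1.64), Nr4a1 (1.14) and Atf3 (1.12) farthest from their means, and Ier2 is the exception.

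The range among the sham libraries was wider than the difference of the group means for all 10 genes. The share of all tested genes was not taken for that comparison, so nothing is read from it. The sham range was wider than the range among the VO libraries for 8 of the 10, while 41.3% of all tested genes had the wider range in sham. The median range of the 10 genes was 1.11 on the log2 scale in sham and 0.45 in VO, against 0.31 and 0.37 over all tested genes. Fosb had a sham range of 2.20, wider than 98.8% of tested genes, and Egr2, Atf3, Nr4a1, Egr1, Egr3 and Fos were past 98.1%, 97.7%, 96.3%, 96.0%, 94.1% and 92.2% of them. Fosb, Egr2 and Egr3 were under the filter on level and so not among the tested genes. Counting error widens a log2 range at their low counts. Their ranks, and the median of the 10 genes, are therefore not like for like with the tested genes. Jun, Junb and Ier2, with sham ranges of 0.39, 0.39 and 0.44, were wider than 62.1% to 68.2% of tested genes. In fragments, Nr4a1 had 377 in sham 1 and 937 in sham 3 (exact Poisson 95% intervals 340 to 417 and 878 to 999) and Egr3 had 17 and 43 (9.90 to 27.2 and 31.1 to 57.9). As for Fosb and Egr2 above, the intervals of these libraries were apart.

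**Figure D3:**
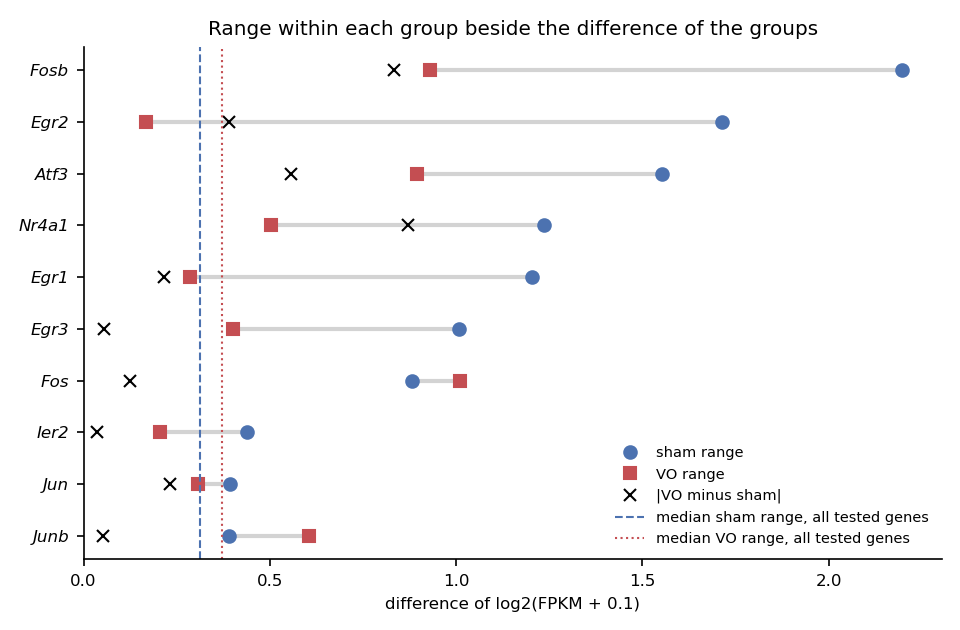
For each gene, the range of log2(FPKM + 0.1) among the 3 sham libraries (blue circle) and the 3 VO libraries (red square), and the size of the VO minus sham difference (cross), with dashed and dotted lines at the median ranges of all tested genes (0.31 and 0.37). The sham circle lies to the right of the cross for all 10 genes, and to the right of the VO square for all but Fos and Junb. The share of all tested genes with the circle right of the cross was not taken. Fosb, Egr2 and Egr3 are not among the tested genes.

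Other measures also differed among the sham libraries. The summed red cell markers Hba-a1, Hba-a2, Hbb-bs, Hbb-bt and Alas2 were 6972, 2382 and 1198 FPKM in sham 1 to sham 3 and 8580, 695 and 1035 FPKM in VO, and the summed atrial cardiomyocyte markers were 20048, 14344 and 13953 FPKM in sham. Of the 13 marker lists, 1 had its highest sum in sham 3, that of smooth muscle, at 193, 178 and 239 FPKM in sham and 82.9 to 137 FPKM in VO, with 1 of its 5 genes highest in sham 3. The part of these in the levels of the immediate early genes was not tested. When sham 3 was left out, every VO library was above both remaining sham libraries for Egr1 and Egr2, and Nr4a1 stayed without overlap. When sham 1 was left out, Fosb, Jun and Nr4a1 were without overlap. Groups with fewer libraries separate more easily, and the share of all tested genes was not taken for these settings, so nothing is read from these separations.

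The genes did not all follow the same pattern over the 6 libraries, which share their depth and scaling, so that correlations are given as a description. Egr1 and Egr2 had a Pearson r of 0.98 on log2 values, Nr4a1 and Atf3 of 0.92, and Egr2 and Egr3 of 0.90. Fos was nearly unrelated to Nr4a1 (r = 0.05), Jun had an r of -0.21 with Fos, and Ier2 ran against Egr1 (-0.81), Egr2 (-0.79) and Atf3 (-0.69). With the group means removed, Egr1 had an r of 0.96 with both Nr4a1 and Atf3, against 0.41 and 0.68 with the means kept.

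Among the 12620 other tested genes, the one most like the mean profile of the 7 filtered genes over the 6 libraries was Cyr61, a matricellular protein gene that is itself an early target of serum and stretch. Its r was 0.99, and it was read at 9.74, 11.9 and 22.5 FPKM in sham and at 10.8, 8.66 and 10.3 FPKM in VO. Sham 3 was the highest library, as for 7 of the 10 immediate early genes, and the other 5 libraries lay between 8.66 and 11.9 FPKM. The next were Prrt1 (0.98), Kansl3 (0.97), Otud7b (0.97), the noncoding RNA Gas5 (0.97), Arv1 (0.96), the FOS family gene Fosl2 (0.95), Trdd1 (0.95), Samd4 (0.95) and Zfp655 (0.94). Trdd1 was listed at 0 in every library but sham 3. An r above 0.9 was found for 25 genes, 0.198% of those compared. Over only 6 libraries unrelated genes also reach such values, and the genes named are the highest of 12620. Nothing is therefore read from this count or from the likeness of any gene. With the group means removed, the most alike were Cyr61 (0.99), Zfp608 (0.99), Gga3 (0.99), Ints3 (0.99) and Usp40 (0.99).

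Read with their close relatives, the families differed in which gene carried the signal. In the FOS family, Fosl2 made up 53.2% of the summed FPKM in sham and 54.2% in VO, Fos 23.0% and 27.5%, and Fosb 3.77% and 1.61%. The sum was 10.4 ± 2.65 FPKM in sham and 9.49 ± 1.33 FPKM in VO, with overlap. In the EGR family, Egr1 made up 88.7% and 88.0% of the sum, and Egr4 was listed at 0 in all libraries. The EGR sum was 4.65, 6.41 and 11.3 FPKM in sham and 8.50, 7.33 and 8.74 FPKM in VO, so that VO lay inside the sham range.

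The JUN sum was 45.0, 54.0 and 49.3 FPKM in sham and 36.8, 40.3 and 41.8 FPKM in VO, with means of 49.4 ± 4.52 and 39.6 ± 2.58 FPKM and no overlap. Jund, which encodes JunD, the most steadily expressed JUN protein, made up 51.6% of it in sham and 46.7% in VO. On the TPM scale the JUN groups overlapped, with the VO mean at 0.876 times that of sham. The NR4A sum was 9.24, 14.7 and 24.0 FPKM in sham and 7.84, 7.76 and 16.1 FPKM in VO. Nr4a1 gave 67.9% of it in sham and 55.7% in VO. The VO 3 value was high through Nr4a3, at 8.0 FPKM in VO 3 against 1.98 and 1.74 FPKM in VO 1 and VO 2 and 1.86, 4.90 and 6.71 FPKM in sham. VO 3 was also the library with adipocyte marker signal, whose part in this level was not tested. Nr4a2 ran the other way to Nr4a1, at 0.475, 0.90 and 0.847 FPKM in sham and 0.910, 1.22 and 1.30 FPKM in VO, under the filter on level.

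**Figure D4:**
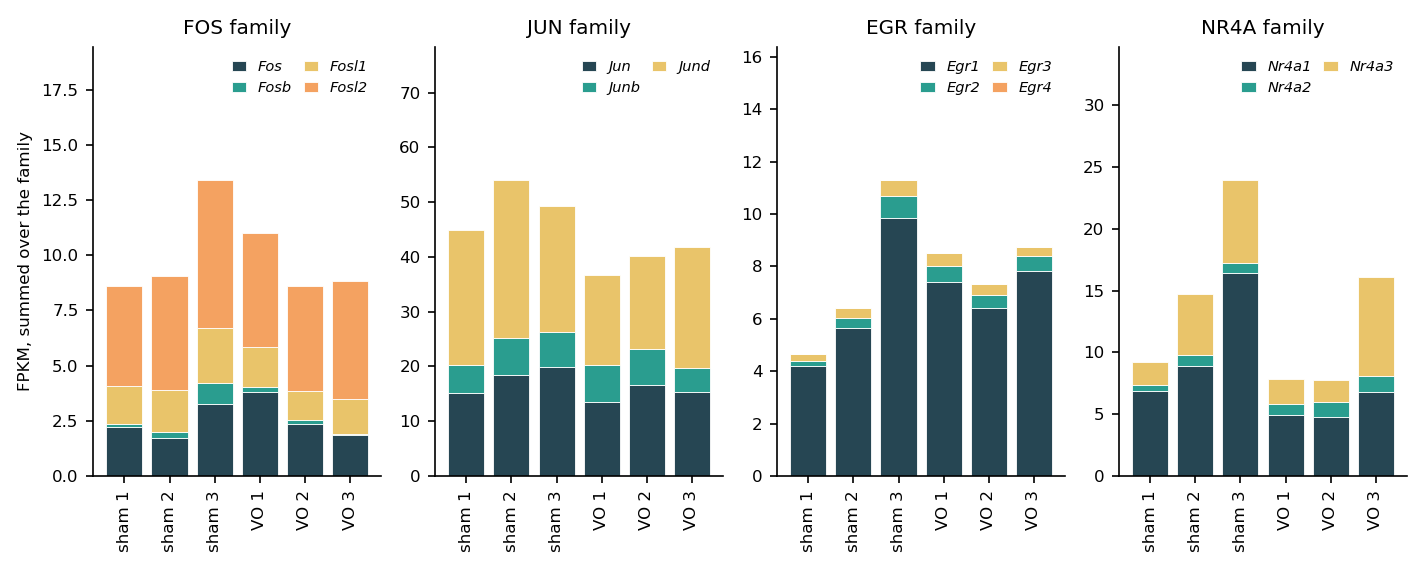
Stacked FPKM (vertical axes, from 0) of the FOS, JUN, EGR and NR4A families in the 6 libraries, with a colour for each gene. The JUN sum lies between 45.0 and 54.0 FPKM in sham and between 36.8 and 41.8 FPKM in VO, while the other families overlap between groups and peak in sham 3.

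Genes around this group were read in lists written by known role, and for these the test over all genes was used. In the 5 lists, 27 of 128 tested genes had an unadjusted limma p under 0.05, 9 higher and 18 lower in VO, beside 12% of all tested genes (3.89% higher and 8.08% lower). None of the 128 passed after adjustment, with limma or with voom, and the adjusted p-values of the 27 were 0.283 to 0.414. No sign among them turned under any alternative setting. Several settings could not turn one, since another filter, variance option or replicate block leaves the difference itself unchanged.

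Of the other AP-1 and bZIP partners, 3 of 14 had an unadjusted p under 0.05 (5 with voom), and all 3 were lower in VO. Jund was read at 24.7, 28.8 and 23.0 FPKM in sham and at 16.5, 17.1 and 22.0 FPKM in VO (log2 difference -0.46 ± 0.15, limma adjusted p = 0.404). Atf4, the main transcription factor of the integrated stress response, had a difference of -0.42 (limma adjusted p = 0.373) and the small MAF gene Maff of -0.83 (limma adjusted p = 0.325). Both were without overlap in the deposited FPKM, which for Atf4 depended on the scaling. Mafg, also among the highest of this list, differed by -0.04. On the TPM scale the list counted 2 higher and 1 lower, and without VO 3 it counted 2 higher and 3 lower.

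The other immediate early and rapid response genes held 10 of 37 with an unadjusted p under 0.05 (9 with voom), 2 higher and 8 lower, and the median of the list was -0.29. Ier5, a relative of Ier2, was read at 14.4, 10.7 and 14.0 FPKM in sham and at 7.62, 7.41 and 8.07 FPKM in VO, which left a clear gap between the groups (-0.74 ± 0.14, limma adjusted p = 0.283). Ctgf, a matricellular relative of Cyr61, was at 214, 204 and 278 FPKM in sham and at 77.2, 160 and 129 FPKM in VO (-0.97 ± 0.28, limma adjusted p = 0.391).

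Also lower in VO on the log2 scale were Cebpd (-0.93) and Gadd45g (-0.77), a C/EBP factor and a growth arrest gene, Ppp1r15a (-0.61), which encodes the GADD34 phosphatase subunit, the kinase genes Pim1 (-0.58) and Sgk1 (-0.36), and the antiproliferative Btg2 (-0.40). The higher genes were Myc (0.53), at 1.51, 1.84 and 1.88 FPKM in sham and 2.27, 2.14 and 3.38 FPKM in VO, and the kinase gene Plk2 (0.51), without overlap for either. The limma adjusted p of these 8 genes was 0.373 to 0.414. The other genes with the highest levels in the list, Rhob and Mcl1, had differences of -0.13 and 0.06. The split of 2 higher and 8 lower became 3 and 6 on the TPM scale.

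Upstream of the group, 5 of 37 kinases and transcription factors had an unadjusted p under 0.05 (6 with voom). Srf encodes serum response factor, the factor known to bind CArG boxes, and it was read at 42.4, 55.4 and 52.9 FPKM in sham and at 32.0, 36.6 and 32.3 FPKM in VO. In the deposited FPKM every sham library lay above every VO library, a separation that depended on the scaling. The log2 difference was -0.57 ± 0.13, with a limma adjusted p of 0.344. Hras (-0.47) and the kinase gene Mapkapk2 (-0.32) were lower, and Nras (0.28) and Elk3 (0.39), which encodes a cofactor of serum response factor, were higher, with adjusted p of 0.404 to 0.414 by limma. Mapk3, which encodes ERK1 and was among the highest of the list, differed by 0.10. This count was 2 of 37 when sham 1, sham 3 or VO 1 was left out and to 3 without sham 2, and it was 3 higher and 2 lower on the TPM scale.

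The feedback inhibitors, which shut the response off again, held 7 of 21 with an unadjusted p under 0.05 (8 with voom), 3 higher and 4 lower. Zfp36, which encodes tristetraprolin, a protein that destabilises AU-rich messenger RNAs, was read at 8.22, 8.41 and 8.62 FPKM in sham and at 5.92, 6.93 and 5.94 FPKM in VO (-0.42 ± 0.10, limma adjusted p = 0.356). Its relative Zfp36l2 was higher, at 15.7, 20.7 and 20.0 FPKM in sham and 32.8, 22.8 and 24.9 FPKM in VO (0.50 ± 0.17, limma adjusted p = 0.406). Both were without overlap.

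The ERK antagonists Spry2 (0.33) and Spred1 (0.38) were also higher, while the phosphatase genes Dusp16 (-0.36) and Dusp8 (-0.68) and the NF-κB inhibitor gene Nfkbia (-0.44) were lower, with adjusted p of 0.404 to 0.414 by limma. Errfi1 and Dusp1, next to Nfkbia the highest of the list, had differences of -0.78 and -0.27. The count was 4 without sham 2 or sham 3 and 3 without VO 1, and on the TPM scale it was 5, all higher.

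Late targets of these factors held 2 of 19 with an unadjusted p under 0.05 (2 with voom), both higher in VO. Fn1, the fibronectin gene, was read at 14.8, 22.3 and 24.7 FPKM in sham and at 52.4, 28.7 and 28.8 FPKM in VO (0.80 ± 0.29, limma adjusted p = 0.407), and Cd44, a hyaluronan receptor gene, at 5.97, 7.29 and 6.92 FPKM in sham and at 19.0, 9.20 and 8.62 FPKM in VO (0.77 ± 0.29, limma adjusted p = 0.410). VO 1 was the highest for both, and it was also the library with the most macrophage marker signal and with the highest summed fibroblast markers, 909 FPKM against 654 to 677 FPKM in sham and 662 and 761 FPKM in VO 2 and VO 3. Without it the differences were 0.51 and 0.40 and the count was 1. The part of these markers in the differences was not tested. It was also 1 without sham 2 or sham 3, and it was 5 without VO 2 and 5 on the TPM scale. Vegfa and Timp1, also among the highest of this list, differed by 0.06 and 0.43.

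**Figure D5:**
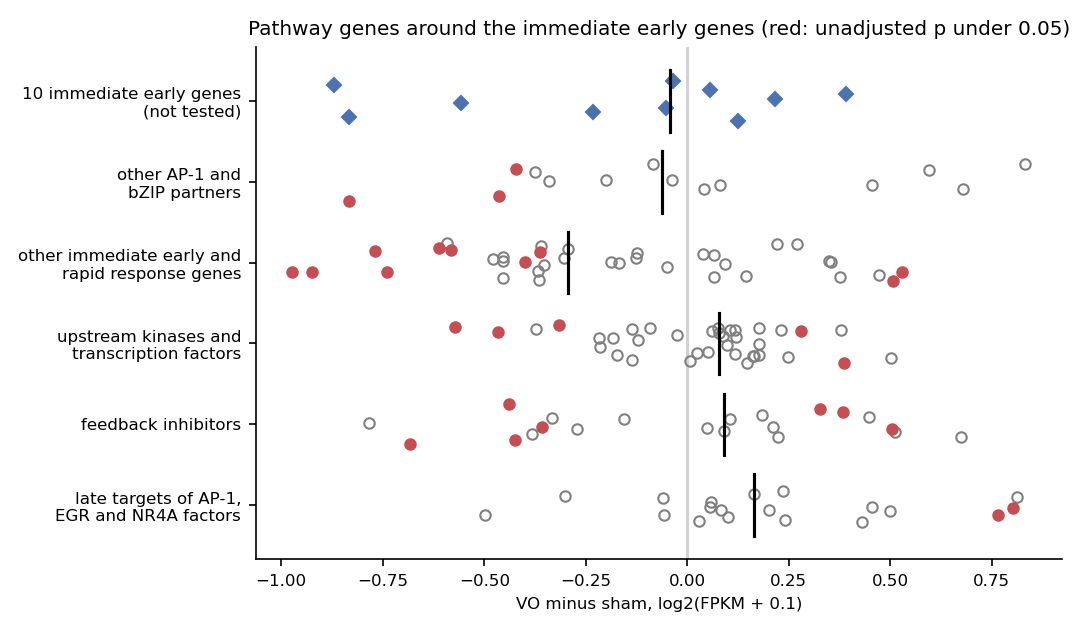
VO minus sham differences of log2(FPKM + 0.1) on the horizontal axis for the 10 immediate early genes (blue, not tested) and for the tested genes of the 5 lists, with genes at an unadjusted limma p under 0.05 filled in red and the median of each row as a black bar. The medians run from -0.29 for the other immediate early and rapid response genes to 0.16 for the late targets, and no filled gene passed after adjustment.

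Features of the transcripts, which the choice by symbol did not use, were common to most but not all of the 10 genes. In GENCODE M21 their main transcripts had a median of 1 intron, from 0 in Jun, Junb and Ier2 to 7 in Nr4a1, and 9 of the 10 had at most 3, as did 20.1% of 10937 tested coding genes, whose median was 8. The median span was 4741 bases, against 22716 over those coding genes. The AU-rich pentamer ATTTA, a known instability element, occurred in the 3′ untranslated region at a median of 2.59 per kilobase, against 1.30, with the highest density in Nr4a1 (5.52) and Fos (4.91), a low one in Fosb (0.466) and none in Ier2. The longer element TATTTAT was in 4 of the 10, Fos, Fosb, Jun and Atf3, and in 28.5% of tested coding genes. In the coordinates of GRCm38, Jun lies at chr4:95049034-95052222, Junb and Ier2 at chr8:84974484-84978718 and chr8:84661331-84662852, Egr3 at chr14:70077203-70082614 and Atf3 at chr1:191170296-191218039, and Egr1 lies on chromosome 18.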

How the data were processed

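The data are 6 RNA-seq libraries of RAs, 3 sham and 3 VO. The authors aligned reads with HISAT2 2.0.5 and counted them with featureCounts 1.5.0-p3, and the deposited values are FPKM. Per the labels the build is GRCm38. The FPKM table held 54093 complete genes and 1 incomplete line, which was left out. Multiplied by gene length, 100% of values above 0 were whole multiples of a library's own step (within 0.01 fragment), from which fragments were recovered.

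Median-of-ratios factors were the same in every library, since the deposited values were already scaled between libraries, so this step changed nothing. Genes under a mean of 1 FPKM were dropped, and the rest were fitted as log2(FPKM + 0.1) with limma 3.58.1 in R 4.3.3 (eBayes with trend, two-sided, Benjamini-Hochberg, threshold 0.05), VO against sham, all 6 libraries, no covariates. Fold changes on this scale understate low genes. The strand setting of the counting is not given in the sources used here, so reads of overlapping antisense genes cannot be told apart. The authors' DESeq2 test was not repeated, and the recovered fragments were used with voom as an alternative to the main fit. The fit was tested on simulated data. Genes named are all 10 members, list genes with an unadjusted p under 0.05, the 3 highest of each list, and the genes most alike in profile. Members and lists were chosen with earlier results of these data known. The same-numbered libraries were not paired, since their correlations after removal of group means were -0.108, 0.0112 and -0.0292.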

Additional observations from a re-analysis of the deposited data

How the results depend on the processing

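The median difference of the 10 immediate early genes, -0.04, ran from -0.18 to 0.08 when each library was left out in turn, and was 0.09 on the TPM scale, 0.05 with libraries scaled by fragment totals (an alternative chosen after seeing the data) and -0.19 with array weights. The number of these genes without overlap, 1, was 0 on the TPM scale and 0 with fragment totals, and 1 to 3 when each library was left out, 3 without sham 1 and 3 without sham 3. With a library left out groups separate more easily, and the share of all tested genes was not taken there. TPM moved the median of all tested genes from -0.01 to 0.13, and its counts should be read against that shift. Over all genes the split of 491 higher and 1020 lower became 1085 and 486 on the TPM scale and 942 and 631 with fragment totals. In the 8 lists, 11 higher and 20 lower became 20 and 10, and 18 and 15. The count over all genes, 1511, was 874 to 2001 and that over the lists, 31, was 20 to 34 when each library was left out, with 874 without sham 1 and 944 without VO 1 over all genes and 20 without sham 2 over the lists. With the replicate number as a block, which the design does not give as a pairing, the counts were 932 and 20. Of the 31 list genes, 0 changed sign under any alternative, though filters, variance options and the replicate block leave the difference unchanged and could not turn a sign. Ier5, Ctgf, Gadd45g, Ppp1r15a, Pim1, Maff, Srf and Hspb1 kept an unadjusted p under 0.05 in each alternative in which they were tested. Maff, at a mean of 3.77 FPKM, was not tested with the filter at 5 FPKM. Depth limits Fosb, Egr2 and Egr3, which rest on 7 to 94 fragments, and 3 libraries a group limit the rest.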

Other observations

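Lists for clock, heat shock and glucocorticoid response genes were read in the same fit, in which 12% of all tested genes had an unadjusted limma p under 0.05. Per1, Sgk1 and Errfi1 stand both here and in the lists above. Of 15 clock genes, 0 had an unadjusted p under 0.05 with limma and 0 with voom. Nr1d2 and Nr1d1, which encode the REV-ERB repressors, and Tef were the highest, with log2 differences of -0.15, 0.03 and -0.19. Of 12 heat shock genes 1 had an unadjusted p under 0.05 (1 with voom), Hspb1, at 204, 193 and 175 FPKM in sham and 102, 126 and 164 FPKM in VO (-0.57 ± 0.19, limma adjusted p = 0.404). The count was 3, all lower, without sham 3 and also without VO 3. Hspa8 and Hspd1 differed by -0.29 and -0.05.

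Of 9 glucocorticoid response genes, 4 had an unadjusted p under 0.05 (5 with voom). Pdk4, a brake on pyruvate oxidation, was higher, at 140, 77.3 and 119 FPKM in sham and 147, 193 and 233 FPKM in VO (0.79 ± 0.26, limma adjusted p = 0.404), and the metallothionein gene Mt1 was higher by 0.44. Klf9 and Sgk1 were lower by values of -0.50 and -0.36. The glucocorticoid target Tsc22d3, among the highest of the list, differed by -0.60. The count was 2 without sham 1, 1 without sham 2, 1 without sham 3 and 2 without VO 2. On the TPM scale it was 2, both higher.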
